A study of Mus musculus with 3 samples.

Results

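The chemokine gene Ccl1, the gene of its receptor Ccr8, the proenkephalin gene Penk and the galectin-7 gene Lgals7 were described in leukocytes of mouse 4T1 mammary tumors, as 4 of the 32285 genes in the single-cell count matrices. They were chosen with results of these data known: Ccl1 and Penk were selected on their higher CPM in T cells of the p38KO library, and Ccr8 and Lgals7 were taken with them. The values below are therefore a description, and no test was made of them. Each condition was 1 library of live CD45+ cells sorted from the pooled tumors of 3 female BALB/c mice of 6 to 8 weeks. All mice carried 4T1-luc cells, a luciferase-labelled triple-negative mammary carcinoma line, in the 4th mammary fat pad, and tumors were taken 14 days after implantation. The vehicle and p38i groups carried tumor cells with intact p38α, and from day 4 they received vehicle or the p38 inhibitor LY2228820 (ralimetinib, 30 mg/kg). The p38KO group carried the p38a-ko-H9 line, which is 1 CRISPR clone without p38α (the Mapk14 gene) in the tumor cells only, and its treatment label reads NA. Host leukocytes were unmodified in all 3 groups. With 1 library per condition there was no replicate, so clone, treatment and library cannot be told apart. All intervals below are exact 95% intervals that cover counting error only. Where 3 values are given in a row, they follow the order vehicle, p38i, p38KO.

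CCL1 is a small secreted chemokine made mostly by activated T cells and mast cells, and CCR8 is its receptor, known from regulatory T cells of tumors and from T helper 2 cells. Mouse CCL8 is a second ligand of CCR8. Proenkephalin is the precursor from which proteases release the enkephalins, opioid peptides that act on the delta and mu opioid receptors. Activated T cells and some regulatory T cells transcribe Penk. Galectin-7 is a galactoside-binding lectin known mainly from stratified epithelia and keratinocytes.

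Ccl1 (ENSMUSG00000020702) is annotated on the minus strand of chromosome 11 at chr11:82176657-82305690 in GENCODE M21, on GRCm38. The RefSeq start of Ccl1 used below lies inside this extent and not at its 5′ end, so the annotations differ on where the gene starts. Ccr8 (ENSMUSG00000042262) lies on the plus strand at chr9:120092114-120094906. Penk (ENSMUSG00000045573) lies on the minus strand at chr4:4133531-4138819, and Lgals7 (ENSMUSG00000053522) on the plus strand at chr7:28863853-28866284. The RefSeq start of Lgals7 used below also lies inside its extent, and the window around it does not reach the GENCODE start. The start regions of Ccl1 and Lgals7 are shown because transcripts of both genes were found in the same T cells. Each runs 5′ to 3′ on the strand of the gene, from 250 bases before the RefSeq start to 50 bases after it (GRCm38.p6), at chr11:82179763-82180062 for Ccl1 and chr7:28864136-28864435 for Lgals7. Capitals mark the core letters GGAAA of NFAT, a factor activated downstream of the T cell receptor, on either strand.
Ccl1: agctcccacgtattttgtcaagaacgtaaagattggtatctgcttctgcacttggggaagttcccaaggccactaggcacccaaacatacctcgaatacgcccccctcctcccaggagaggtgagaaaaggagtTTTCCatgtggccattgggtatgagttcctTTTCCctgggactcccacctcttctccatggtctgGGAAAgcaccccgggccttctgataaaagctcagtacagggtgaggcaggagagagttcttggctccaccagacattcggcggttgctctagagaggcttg
Lgals7: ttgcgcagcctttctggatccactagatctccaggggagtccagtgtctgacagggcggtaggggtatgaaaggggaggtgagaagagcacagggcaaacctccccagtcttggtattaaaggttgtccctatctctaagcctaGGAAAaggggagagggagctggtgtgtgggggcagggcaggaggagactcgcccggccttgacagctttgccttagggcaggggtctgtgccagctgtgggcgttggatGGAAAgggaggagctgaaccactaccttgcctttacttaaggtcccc
The Ccl1 window held 3 matches of GGAAA or its reverse complement and the Lgals7 window held 2. Of 32851 RefSeq windows of the same length, 61.3% held at least 1 match, 26.7% held 2 or more and 9.42% held 3 or more. The Ccr8 window held no match. None of the 3 windows held the AP-1 letters TGANTCA, which 7.81% of all windows held. The Ccr8 window held 1 match of the GATA letters AGATAA, found in 11.2% of all windows. A match is a description of letters, not a bound site.

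Of the deposited barcodes, 3820 of 4588 in vehicle, 4793 of 6343 in p38i and 3859 of 5212 in p38KO had at least 1500 UMIs (unique molecular identifiers, each counting 1 captured transcript), at least 300 genes and at most 20% mitochondrial UMIs. Median depth was 3038 to 3317 UMIs per kept cell, and 4 or 5 kept barcodes were shared by each pair of libraries. Cells were sorted into gates by raw counts. Conventional CD4 T cells had Cd3e and Cd4 but no Cd8a, Foxp3 or Trdc transcript, Foxp3 T cells had Cd3e and Foxp3, and CD8 T cells had Cd3e and Cd8a without Cd4. A cell whose Foxp3 transcript was not captured falls in the conventional gate. Trac, a T cell receptor constant region, was seen in 81.5% to 90.4% of conventional CD4 T cells. The conventional CD4 gate held 115, 146 and 178 cells, with 603277, 688950 and 1030210 UMIs. The macrophage gate held 170, 188 and 551 cells and the mast cell gate 2, 6 and 94.

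Transcripts of the 4 genes were rare and unevenly spread. Over the 12472 kept cells, Ccl1 gave 2650 UMIs in 106 cells, Penk 1633 in 148, Lgals7 925 in 203 and Ccr8 17 in 17. At least 1 of them was seen in 112 vehicle, 120 p38i and 164 p38KO cells. Nearly all Penk transcripts lay in T cells. T cells held 297 of 298 Ccl1 UMIs in vehicle, 540 of 584 in p38i and 1534 of 1768 in p38KO. NK cells held 0, 40 and 221, in few cells.

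Ccl1 was highest in conventional CD4 T cells of the p38KO library. These cells held 189 Ccl1 UMIs in vehicle, 296 in p38i and 1437 in p38KO. In counts per 1000000 UMIs of the gate (CPM) the levels were 313 (95% CI 270 to 361), 430 (382 to 481) and 1395 (1324 to 1469). The level in p38KO was 4.45 times that in vehicle, a log2 ratio of 2.15 (95% CI 1.93 to 2.38), and 3.25 times that in p38i. The p38i level stood 1.37 times above vehicle (log2 ratio 0.46, 95% CI 0.19 to 0.73), below the 2-fold size used here to call a gene. A call took at least 20 UMIs over both libraries, a 2-fold difference and an interval without 0. By this rule 2 of the 3 members with enough UMIs, Ccl1 and Penk, were higher in p38KO than in vehicle and 0 were lower. Lgals7, the other of the 3, was not called (log2 ratio 0.76). Of all 7310 genes with enough UMIs in that gate, 4.54% were higher and 1.33% lower. Ccl1 and Penk were selected on their level in T cells of p38KO, so their calls cannot be weighed against this share. In p38i against vehicle 0 of the 3 members were called, where 3.78% of 6534 genes were higher and 1.71% lower. Both ratios use the same vehicle library.

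More cells carried Ccl1 in the p38KO library, and a few carried most of it. Ccl1 was seen in 7 of 115 vehicle cells (6.09%, 95% CI 2.48 to 12.1), in 8 of 146 p38i cells (5.48%, 2.40 to 10.5) and in 28 of 178 p38KO cells (15.7%, 10.7 to 21.9). After every cell was thinned to 1500 UMIs the shares were 3.48%, 4.11% and 9.55%. The number of cells with 10 or more Ccl1 UMIs was 3 in vehicle, 2 in p38i and 11 in p38KO. A single p38KO cell held 680 of the 1437 UMIs, and the top 5 cells held 89.4% of them. In vehicle the top cell held 109 of 189 UMIs, and in p38i it held 268 of 296. The ratio of p38KO to vehicle therefore depended on few cells. Without the top cell of each library the log2 ratio was 2.48, and p38i then fell below vehicle, at 28 against 80 UMIs (log2 ratio -1.70). Where T cells with any Csf3r, Fn1 or C1qa transcript were left out, 489 Ccl1 UMIs remained in p38KO and 181 in vehicle, and the log2 ratio was 0.91. The p38KO cells left out included those with 680, 138 and 104 Ccl1 UMIs, each of which had 1 C1qa UMI. On thinned cells it was 1.25.

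**Figure D1:**
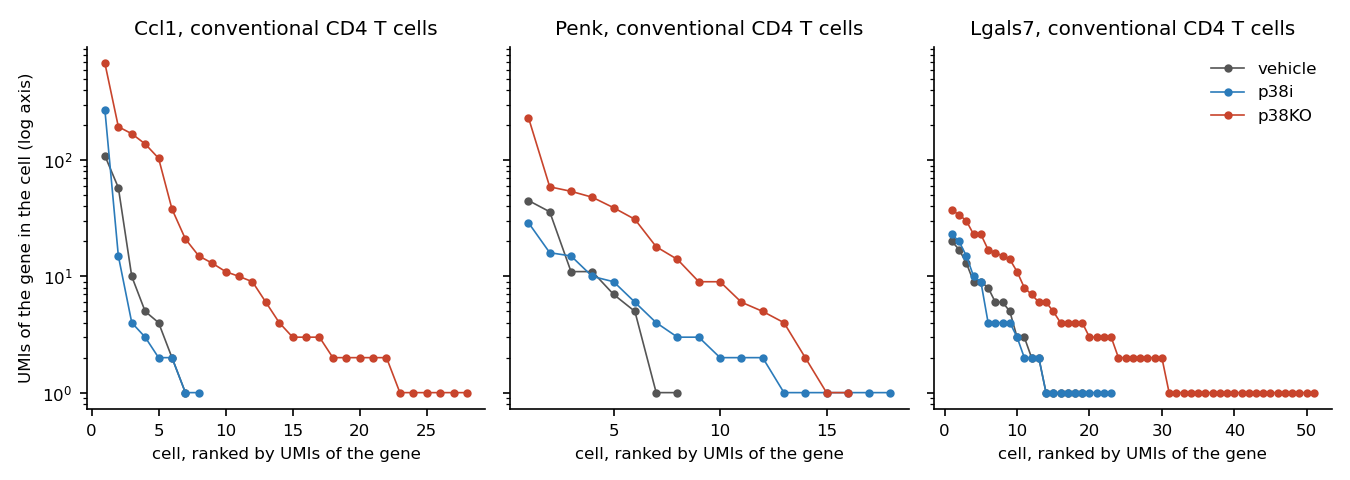
UMIs of Ccl1, Penk and Lgals7 in single conventional CD4 T cells (vertical log axis), with the cells that had the gene ranked by that number (horizontal axis) by library. The p38KO curve for Ccl1 starts at 680 UMIs and runs over 28 cells, against 7 in vehicle and 8 in p38i.

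The single cells with most Ccl1 differed from one another in the other cytokines they carried. The p38KO cell with 680 Ccl1 UMIs had 16166 UMIs in all, among them 204 of Csf2, the gene of GM-CSF, 56 of Ifng and 39 of Penk. Transcripts of 2 beta chain V genes, Trbv2 and Trbv13-2, were seen in it. The next cell had 194 Ccl1 UMIs with 34 of Lgals7 and with 75 of Il13 and 41 of Il4, cytokine genes of T helper 2 cells. Another had 169 Ccl1 and 59 Penk UMIs, another 138 Ccl1 and 30 Lgals7 UMIs, and another 104 Ccl1 UMIs with 40 of Ifng, 27 of Il3 and 21 of Csf2. The top vehicle cell, with 109 Ccl1 UMIs, had 1 UMI each of Csf2 and Ifng and none of Penk or Lgals7. The top p38i cell, with 268, had 10 Penk UMIs. No doublets were removed, and whether any of these barcodes held more than 1 cell was not tested.

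Other lymphocyte gates held less Ccl1, and the order of the libraries differed between them. CD8 T cells had 104, 225 and 94 Ccl1 UMIs over the 3 libraries, or 48.7 (95% CI 39.8 to 59.0), 148 (129 to 169) and 83.7 CPM (67.6 to 102). They lay in 15 of 277, 15 of 239 and 3 of 161 cells, and 1 p38KO cell held 92 of the 94 UMIs. The share of CD8 T cells with Ccl1 was 5.42% in vehicle, 6.28% in p38i and 1.86% in p38KO. In CD8 T cells 1 of the 3 members with enough UMIs, Ccl1, was called higher in p38i than in vehicle (log2 ratio 1.60, 95% CI 1.26 to 1.95), where 1.91% of 9017 genes were higher and 1.91% lower. This call rests on few cells. A single p38i cell held 118 of the 225 UMIs and the top 5 held 199, and a single vehicle cell held 53 of the 104. Foxp3 T cells had 0 Ccl1 UMIs in 73 vehicle cells, which allows a share of up to 4.11%, 0 in 120 p38i cells, which allows up to 2.50%, and 1 in 103 p38KO cells. Such a limit, 3 counts over the number of cells, is on the share of cells with a UMI and not on the share expressing the gene. NK cells had 0 Ccl1 UMIs in 129 vehicle cells, 40 in 2 of 125 p38i cells and 221 in 5 of 152 p38KO cells. Against a floor of 3 UMIs in the vehicle NK cells, the bound on the ratio was 49.3 for p38KO and 13.2 for p38i. These bounds count UMIs, which lie in few cells, and leave out the counting error of the p38KO and p38i UMIs. The share of NK cells with a Ccl1 UMI was 0% in vehicle (95% CI 0 to 2.82), 1.6% in p38i (0.194 to 5.66) and 3.29% in p38KO (1.08 to 7.51). The intervals of these shares overlap. The p38i bound rests on 1 cell, which held 38 of the 40 UMIs, and the other 2 UMIs lie under the floor. A single p38KO NK cell held 150 of the 221 UMIs and had 267 UMIs of Xcl1, the gene of lymphotactin. The mast cell gate held little Ccl1, at 0 UMIs in 2 vehicle cells, 1 in 6 p38i cells and 4 in 94 p38KO cells. The 4 UMIs lay in 3 cells (3.19%, 95% CI 0.663 to 9.04). In neutrophils, which serve as the background of free RNA, 1 of 2048, 3 of 2428 and 4 of 1808 cells had a Ccl1 UMI, 0.0488% to 0.221%, at a median depth of 2565, 2394 and 2244 UMIs against 4417, 3624 and 5064 in conventional CD4 T cells.

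**Figure D2:**
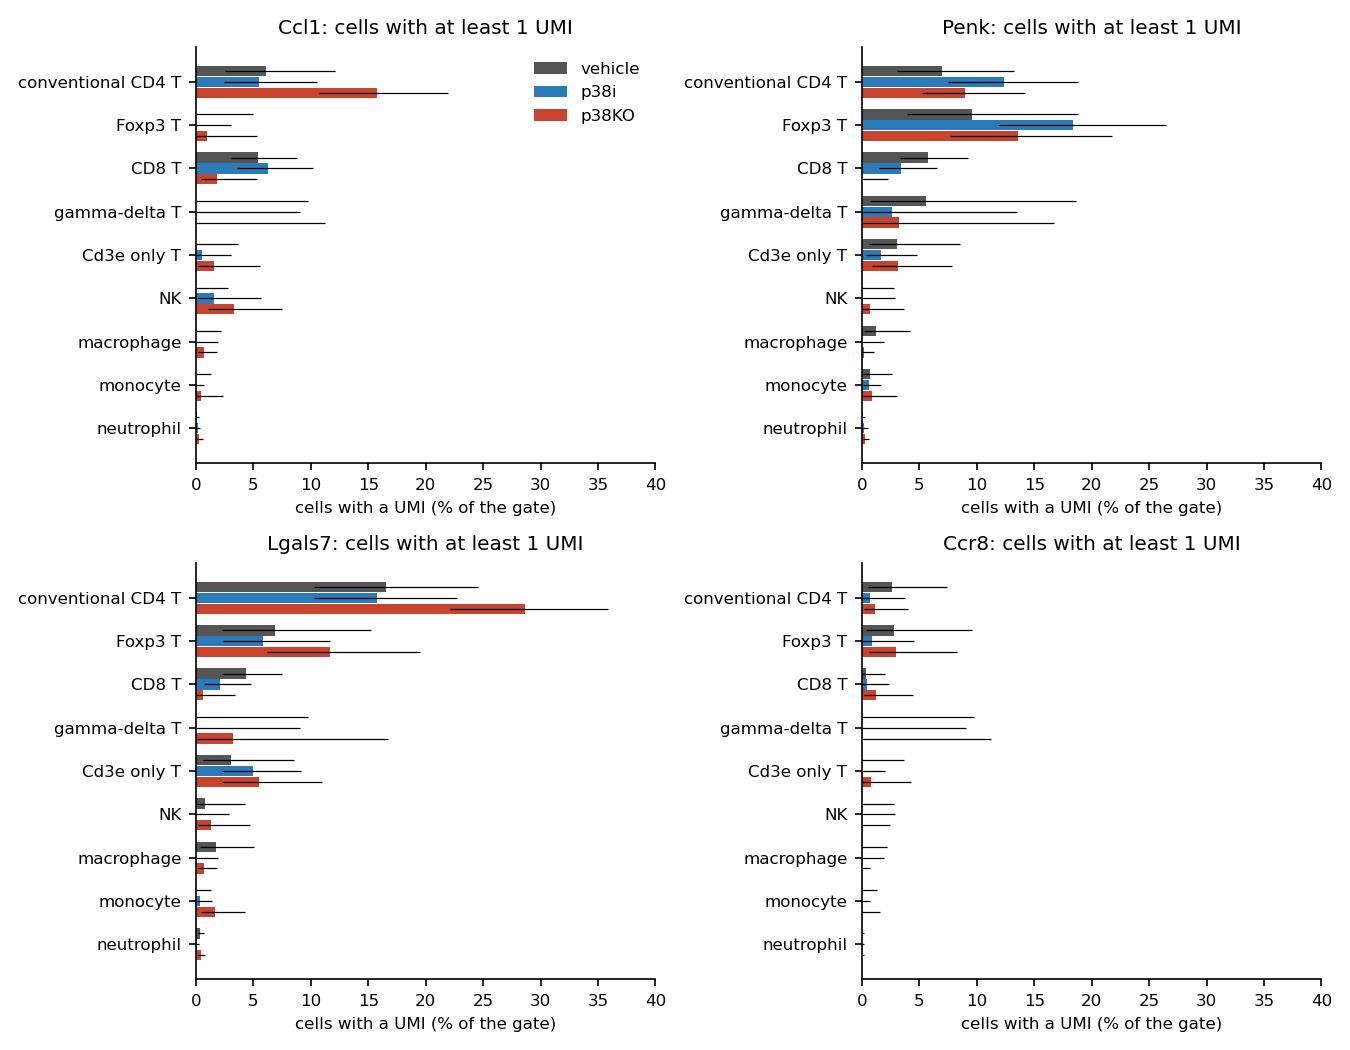
Share of cells with at least 1 UMI of Ccl1, Penk, Lgals7 or Ccr8 (horizontal axis, % of the gate) in 9 gates of each library, with exact 95% intervals as lines. Ccl1 and Lgals7 peak in conventional CD4 T cells of p38KO (15.7% and 28.7%), Penk in Foxp3 T cells of p38i (18.3%), and Ccr8 stays under 3% in each gate shown.

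Penk, the enkephalin precursor, was shared by conventional CD4 T cells and Foxp3 T cells. Conventional CD4 T cells held 117, 107 and 533 Penk UMIs, or 194 (95% CI 160 to 232), 155 (127 to 188) and 517 CPM (474 to 563). The p38KO level was 2.67 times that of vehicle (log2 ratio 1.42, 95% CI 1.12 to 1.72) and 3.33 times that of p38i, while p38i and vehicle differed by a log2 ratio of -0.32 (-0.71 to 0.07). The number of Penk-positive cells did not follow this order. Penk was seen in 8 of 115 vehicle cells (6.96%, 95% CI 3.05 to 13.2), in 18 of 146 p38i cells (12.3%, 7.47 to 18.8) and in 16 of 178 p38KO cells (8.99%, 5.23 to 14.2). The median Penk-positive cell had 9 UMIs in vehicle, 2.5 in p38i and 11.5 in p38KO. The top p38KO cell held 233 of the 533 Penk UMIs, with 12 of Il13, 13 of Gata3, the T helper 2 transcription factor, and no Ccl1. On thinned cells the log2 ratio of p38KO to vehicle was 0.75 (95% CI 0.16 to 1.38), under the 2-fold size.

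In Foxp3 T cells, the regulatory T cell gate, Penk reached 115, 159 and 264 UMIs, or 281 (95% CI 232 to 337), 289 (246 to 337) and 399 CPM (353 to 450). The share of Foxp3 T cells with Penk was 9.59% in vehicle (7 of 73), 18.3% in p38i (22 of 120) and 13.6% in p38KO (14 of 103). A single p38KO cell of 39119 UMIs, with 26 UMIs of the proliferation marker Mki67, held 152 of the 264 Penk UMIs. CD8 T cells had 46 Penk UMIs in 16 of 277 vehicle cells, 44 in 8 of 239 p38i cells and 0 in 161 p38KO cells, which allows a share of cells with a UMI of up to 1.86% there. Against a floor of 3 UMIs, Penk in p38KO CD8 T cells was 8.07 times lower than in vehicle. This value leaves out the counting error of the 46 vehicle UMIs, so it is not a 95% bound. Lgals7 was also called lower there, at 19 UMIs in vehicle and 1 in p38KO (log2 ratio -3.32, 95% CI -8.70 to -0.67), so 2 of the 3 members with enough UMIs were lower in p38KO than in vehicle and 0 higher. Of all 8839 genes with enough UMIs in CD8 T cells, 2.76% were lower and 3.55% higher. On thinned cells Penk was seen in 8 of 277 vehicle CD8 T cells (2.89%, 95% CI 1.25 to 5.61). It was seen in 0 of 161 in p38KO (95% CI 0 to 2.27), and these intervals overlap. Lgals7 was then seen in 1 vehicle and 0 p38KO CD8 T cells. Among T cells with neither Cd4 nor Cd8a, 1 p38i cell carried 173 of the 183 Penk UMIs, together with 28 of Lgals7. Neutrophils had a Penk UMI in 1, 5 and 4 cells.

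Lgals7 was the most widely seen of the 4 genes in conventional CD4 T cells. It had 109, 112 and 315 UMIs there, or 181 (95% CI 148 to 218), 163 (134 to 196) and 306 CPM (273 to 341). The log2 ratio of p38KO to vehicle was 0.76 (95% CI 0.44 to 1.09), under the 2-fold size, and that of p38i to vehicle was -0.15 (-0.55 to 0.24). Lgals7 was seen in 19 of 115 vehicle cells (16.5%, 95% CI 10.3 to 24.6), 23 of 146 p38i cells (15.8%, 10.3 to 22.7) and 51 of 178 p38KO cells (28.7%, 22.1 to 35.9). On thinned cells the shares were 6.09%, 4.79% and 15.2%, and the log2 ratio of p38KO to vehicle was 1.26. No single cell carried more than 37 Lgals7 UMIs in this gate, and the top 5 cells of p38KO held 46.7% of the UMIs. Foxp3 T cells had 7, 11 and 23 Lgals7 UMIs and CD8 T cells 19, 5 and 1.

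Because galectin-7 is an epithelial gene, Lgals7 was set beside tumor epithelial transcripts (Epcam, Cdh1 and 6 keratin and claudin genes). No T cell with Lgals7, of 41, 45 and 72 in the 3 libraries, had transcripts of 3 or more of these 8 genes. Neither did any of the 564, 684 and 533 T cells without Lgals7, so this count cannot tell them apart. Epithelial UMIs numbered 2, 9 and 28 in T cells with Lgals7 and 68, 98 and 211 in those without. Outside the T cell gates, 4 of 17 vehicle cells and 5 of 23 p38KO cells with Lgals7 had 3 or more of the 8 genes. These cells held 43 of the 58 and 167 of the 185 Lgals7 UMIs found there. A p38KO barcode in the neutrophil gate alone held 139 Lgals7 UMIs, with 747 UMIs of 4 epithelial genes among its 21795. The epithelial list as a whole had 5, 25 and 47 UMIs in conventional CD4 T cells, with 5, 5 and 3 of its 8 genes at 0. Cdh1 was the only gene of it with enough UMIs to compare (3 against 40, log2 ratio of p38KO to vehicle 2.96).

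Ccr8, the receptor, was at the limit of detection. All kept cells together gave 6 Ccr8 UMIs in vehicle, 3 in p38i and 8 in p38KO, each in a different cell and each cell a T cell. Conventional CD4 T cells had 3, 1 and 2 UMIs and Foxp3 T cells 2, 1 and 3, in 2.74% (95% CI 0.334 to 9.55), 0.833% (0.0211 to 4.56) and 2.91% (0.605 to 8.28) of 73, 120 and 103 Foxp3 T cells. The log2 ratio of p38KO to vehicle was -1.36 (95% CI -4.94 to 1.77) in conventional CD4 T cells and -0.11 (-3.23 to 3.47) in Foxp3 T cells, so a change of several-fold either way was not detectable at this depth. Neutrophils had 0 Ccr8 UMIs in 2048, 2428 and 1808 cells, which allows shares of up to 0.146%, 0.124% and 0.166%. The 8 p38KO cells with Ccr8 had a median depth of 10020 UMIs, above the 3317 of all kept cells. Both Ccr8-positive conventional CD4 T cells of p38KO were the cells with most Ccl1, with 680 and 194 UMIs. One of the 3 in vehicle had 10 Ccl1 and 20 Il13 UMIs. Ccr4, the receptor gene of the related chemokines CCL17 and CCL22, had 77, 79 and 94 UMIs in all T cells.

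The gene of the second mouse ligand of CCR8, Ccl8, was highest in macrophages. Macrophages held 3006 Ccl8 UMIs in vehicle, 2093 in p38i and 26509 in p38KO, or 887, 633 and 2938 CPM, in 45.9%, 44.7% and 78.4% of cells. The log2 ratio of p38KO to vehicle was 1.73 (95% CI 1.67 to 1.78) in macrophages and that of p38i to vehicle was -0.49 (-0.57 to -0.41). Conventional CD4 T cells had 0, 1 and 188 Ccl8 UMIs, and neutrophils of p38KO had 220, in 8.79% of cells against 10.7% of conventional CD4 T cells. Of the 188 UMIs, 171 lay in 5 cells without Ccl1. Ccl1 in neutrophils of p38KO was seen in 0.221% of cells.

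**Figure D3:**
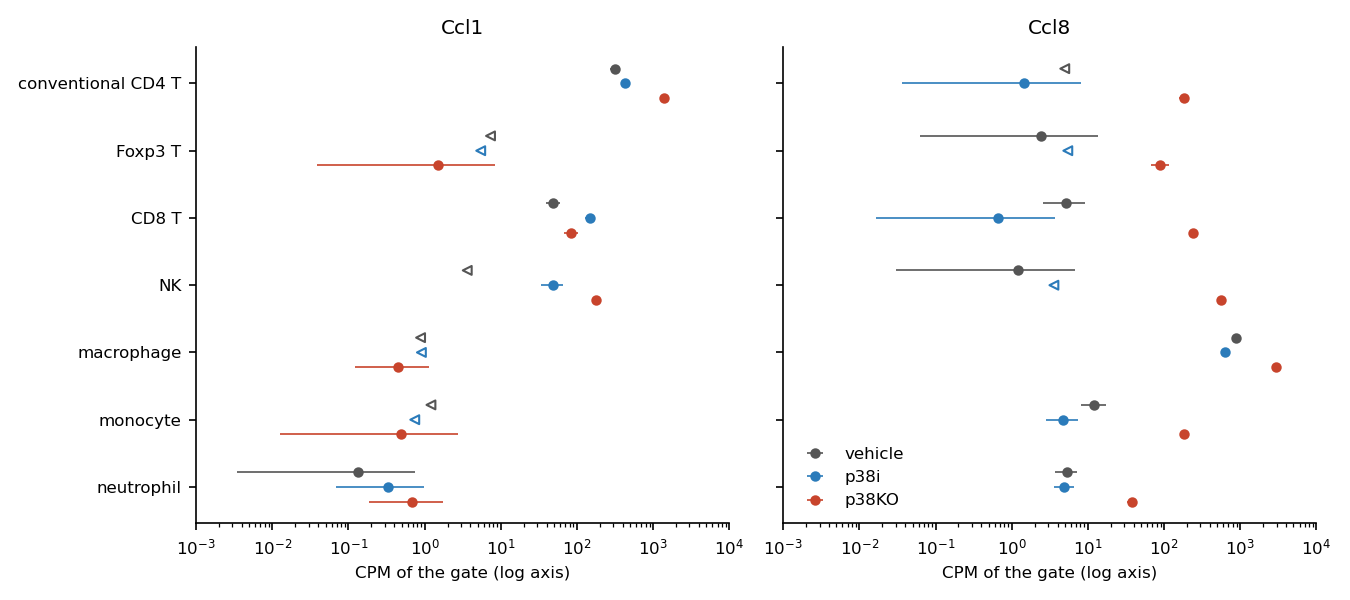
CPM of the CCR8 ligand genes Ccl1 and Ccl8 (horizontal log axes) in 7 gates of each library, with exact 95% intervals. Open triangles stand at the floor of 3 UMIs for gates with 0. Ccl1 is highest in conventional CD4 T cells and Ccl8 in macrophages, both in p38KO, at 1395 and 2938 CPM.

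The genes overlapped in part of the cells. Of 178 conventional CD4 T cells of p38KO, 67 (37.6%) had at least 1 of the 4 genes. Of these, 43 had 1 gene, 19 had 2 and 5 had 3 or more. In vehicle 30 cells and in p38i 35 cells had at least 1. Penk was seen in 7 of 28 Ccl1-positive cells of p38KO (25.0%, 95% CI 10.7 to 44.9) and in 9 of 150 Ccl1-negative cells (6.00%, 2.78 to 11.1). In p38i it was seen in 5 of 8 and 13 of 138, and in vehicle in 1 of 7 and 7 of 108. Lgals7 was seen in 15 of 28 Ccl1-positive cells of p38KO (53.6%, 33.9 to 72.5) and in 36 of 150 Ccl1-negative cells (24.0%, 17.4 to 31.6). Ccl1-positive cells were deeper, with a median of 8034 against 4669 UMIs in p38KO. On thinned cells Penk was seen in 5 of 17 Ccl1-positive and 8 of 161 other p38KO cells, and Lgals7 in 4 of 17 and 23 of 161. The intervals of the thinned Lgals7 shares, 6.81% to 49.9% and 9.28% to 20.7%, overlap widely. Of the Ccl1 UMIs, 2.65% in vehicle, 97.3% in p38i and 62.1% in p38KO lay in cells that also had Penk. The cells with 268 Ccl1 UMIs in p38i and 680 in p38KO held most of these. Of the Penk UMIs, 0.855%, 27.1% and 37.0% lay in cells with Ccl1, and 10.3%, 42.1% and 75.4% in cells with Lgals7. Single cells held most of the latter in p38KO and p38i. In p38KO 233 of these 402 Penk UMIs lay in 1 cell, which had 5 Lgals7 UMIs. In p38i 29 of 45 lay in 1 cell, which had 1 Lgals7 UMI. Outside the conventional gate, 5 of 15 Ccl1-positive CD8 T cells of vehicle and 3 of 15 of p38i had Penk.

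**Figure D4:**
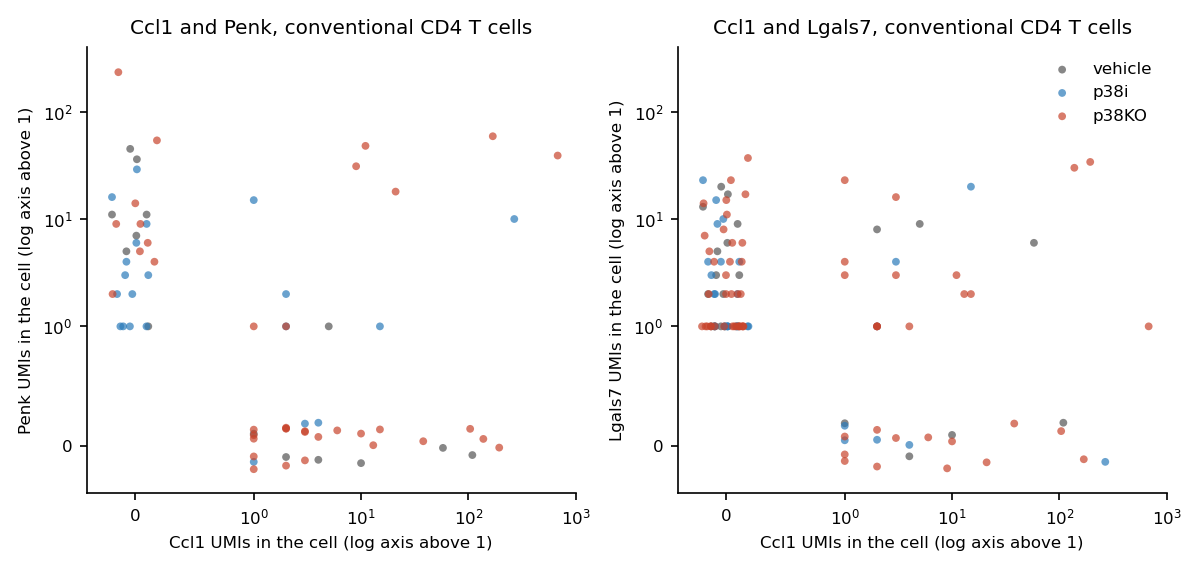
Ccl1 UMIs (horizontal axis) against Penk or Lgals7 UMIs (vertical axis) in single conventional CD4 T cells, by library, on axes that are logarithmic above 1. Cells at 0 are spread slightly around 0 so that they can be seen. In p38KO 7 of 28 Ccl1-positive cells have Penk and 15 of 28 have Lgals7.

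The Ccl1-positive conventional CD4 T cells of p38KO were compared with the Ccl1-negative ones, by summed UMIs (233169 against 797041). Penk and Lgals7, the 2 other members with enough UMIs, were both higher in Ccl1-positive cells, at 845 against 422 CPM and 536 against 238 CPM. The Penk ratio lay close to the 2-fold size and rested on few cells. A single Ccl1-negative cell held 233 Penk UMIs, against 197 in all Ccl1-positive cells. Of all 6074 genes with enough UMIs, 5.0% were higher and 5.78% lower. Cytokine genes that T cells switch on after receptor engagement were among those with the largest ratios. Il2 reached 1548 against 26.3 CPM (log2 ratio 5.88, 95% CI 5.24 to 6.59), but 1 cell held 313 of its 361 UMIs. Csf2 reached 1149 against 33.9 CPM, with 204 of 268 UMIs in 1 cell, and was seen in 9 of 28 Ccl1-positive and 5 of 150 Ccl1-negative cells. In p38i Csf2 was seen in 5 of 8 and 9 of 138, and in vehicle in 1 of 7 and 3 of 108. Il4 and Il13, cytokines of T helper 2 cells, had log2 ratios of 4.06 and 3.65, and single cells held 93.2% and 85.2% of their UMIs. Less tied to single cells were Nrgn, the neurogranin gene, seen in 18 of 28 against 14 of 150 cells, and Spp1, the osteopontin gene, seen in 19 of 28 against 35 of 150. Others were the granzyme gene Gzmc (3.90) and Ccdc184 (4.17). Rrm2, which serves DNA synthesis (3.67), and Stmn1, which is high in cycling cells (3.58), completed the 10 genes. These 10 had the largest log2 ratios among genes with at least 50 UMIs. Left out were Ccl1 and mitochondrial, ribosomal, Gm-numbered and Rik genes. Single cells held 113 of the 197 Gzmc UMIs, 21 of the 41 Rrm2 UMIs and 32 of the 42 Stmn1 UMIs of the Ccl1-positive cells, and Rrm2 and Stmn1 were seen in 4 and 3 of the 28.

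By list, 7 of 13 activation and activation-induced cytokine genes with enough UMIs were higher in Ccl1-positive cells of p38KO and 0 lower, with a median log2 ratio of 1.30 against 0.05 over all genes. These were Il2, Csf2, Il3, Nr4a3, Egr2, Tnfsf8 and Tnfsf11. Of 7 naive and memory T cell genes, 6 were lower and 0 higher (median -2.79), among them Tcf7 at 4.29 against 79.0 CPM and S1pr1 at 8.58 against 104 CPM. Of 5 genes of the coinhibitory list, 4 were higher, with a median of 1.52. These were the receptor genes Lag3, Pdcd1 and Havcr2, and Cd200, which encodes a ligand of an inhibitory receptor. Of 6 T helper 2 genes, 2 were higher, Il4 and Il13, and 1 lower, Il1rl1. Gata3 differed by a log2 ratio of 0.65 and was seen in 20 of 28 against 66 of 150 cells. The median of the T helper 2 list was -0.05. Of 7 T helper 1 and cytotoxic genes, 2 were higher and 3 lower, with a median of 0.60. The 1 T helper 17 and follicular helper gene with enough UMIs was higher. All 4 cell cycle genes with enough UMIs, Mki67, Top2a, Birc5 and Stmn1, were higher (median 3.05), but few cells carried them. Mki67 was seen in 4 of 28 Ccl1-positive cells, with 14 of its 22 UMIs in 1 cell, and Top2a in 10, with 24 of 38 in 1 cell. Of 8 dissociation response genes 3 were higher. Of 7 T cell markers 0 were called either way. Myeloid transcripts moved with this comparison. All 4 granulocyte genes and 6 of 7 macrophage and monocyte genes with enough UMIs were lower in Ccl1-positive cells. Most of these UMIs sat in few of the 150 Ccl1-negative cells. The top 5 cells of each gene held 1476 of 1950 S100a9 UMIs and 458 of 507 C1qa UMIs. Low counts were spread more widely. S100a9, C1qa and Apoe were seen in 68, 35 and 70 of 150 Ccl1-negative cells and in 15, 6 and 16 of 28 Ccl1-positive cells. The part of myeloid transcripts in the ratios was not tested.

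**Figure D5:**
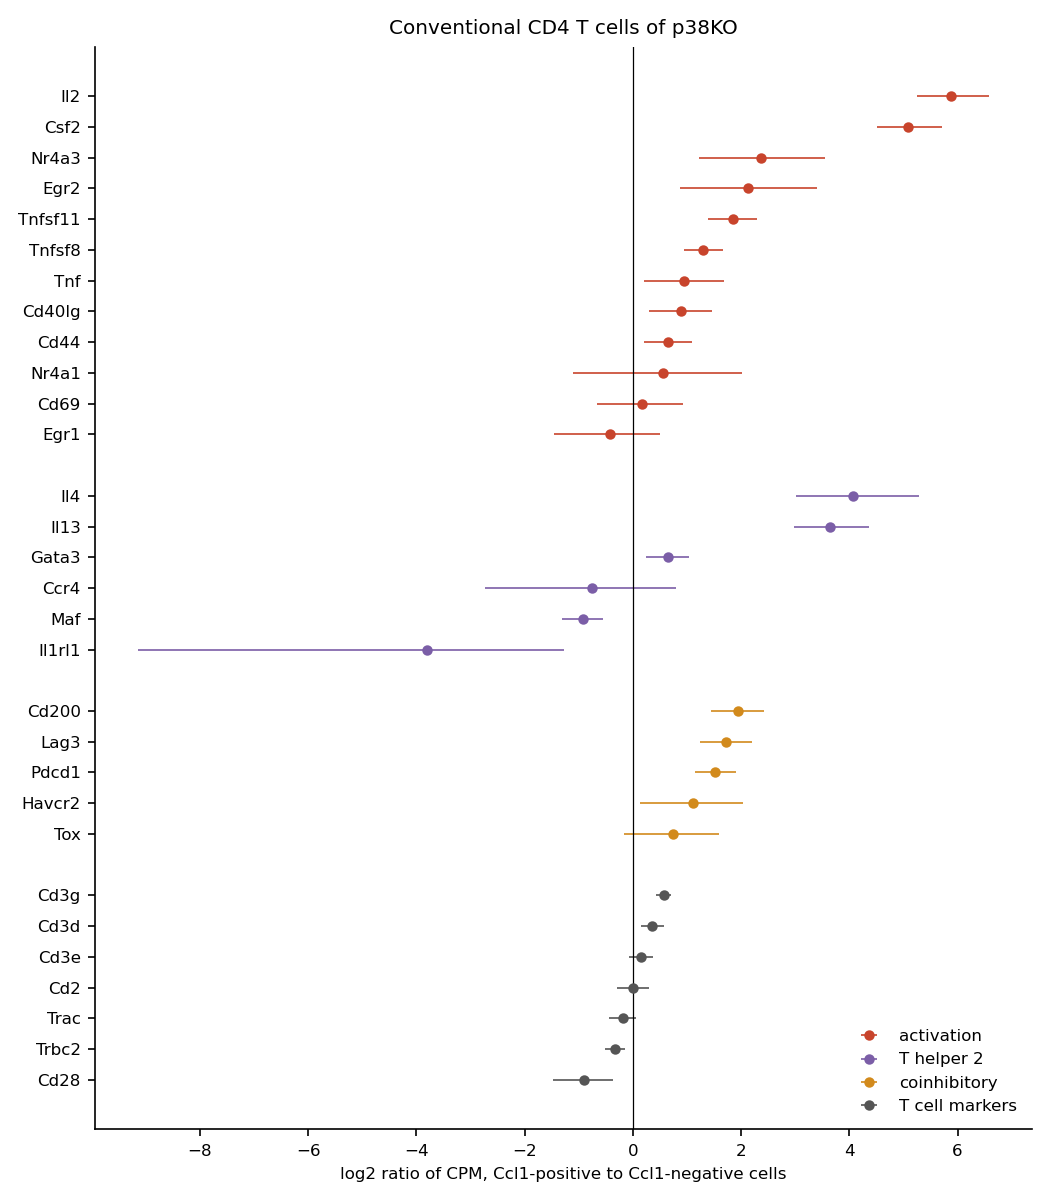
Log2 ratio of CPM in Ccl1-positive to Ccl1-negative conventional CD4 T cells of p38KO (horizontal axis) with exact 95% intervals. Genes are from 4 lists (activation, T helper 2, coinhibitory and T cell markers), leaving out genes at 0 in either group. Il2 and Csf2 lie furthest right at 5.88 and 5.08, and Il1rl1 lies furthest left at -3.81.

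T cell receptor transcripts showed no single receptor among the Ccl1-positive cells. A V gene was seen in 14 of 28 Ccl1-positive conventional CD4 T cells of p38KO and in 30 of 150 Ccl1-negative ones. Of the positive cells, 11 had a beta chain V gene, and these had 6 different ones. Trbv2 was seen in 4 cells and Trbv13-3 in 3. At this depth most cells gave no beta chain V gene, so clones could not be counted.

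Across the 31 sums of a gate and a library with at least 20 cells, the genes most like each member were ranked by Pearson's r of log2(CPM + 10), as a description in which sums of a library share its depth and free RNA. Csf2 was closest to Ccl1 (r = 0.89), followed by Runx2os1 (0.82) and Mir155hg (0.81), the host transcript of a microRNA induced by activation. A single p38KO cell held 680 of the 2650 Ccl1 UMIs and 204 of the 661 Csf2 UMIs behind the first of these. Igsf9b (0.92), A630023P12Rik (0.92), Izumo1r (0.91), which encodes the folate receptor 4 of regulatory T cells, and Tnfrsf4 (0.91), which encodes the costimulatory receptor OX40, were closest to Penk. Cd40lg (0.87), the CD40 ligand gene of helper T cells, and Tnfsf11 (0.82), which encodes RANKL, were closest to Lgals7. Among the members, Penk and Lgals7 were most alike (0.80) and Ccl1 and Ccr8 least (0.36), with Ccl1 and Penk at 0.42. Ccr8 reached at most 4.97 CPM in a gate, under the 10 CPM added before the log, so its values could vary little. Izumo1r was also among the 5 genes closest to Ccr8 (0.81), a rank that rests on 17 Ccr8 UMIs.

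The other genes of these pathways were set beside the members in conventional CD4 T cells of p38KO against vehicle. Of 10 enkephalin genes, 2 had enough UMIs, Penk and the protease gene Furin, which had 79, 67 and 206 UMIs and a log2 ratio of 0.61 (95% CI 0.23 to 1.00). The opioid receptor genes Oprd1, Oprm1 and Oprk1 had 0 UMIs in this gate in all 3 libraries. Of 6 galectin genes with enough UMIs, 0 were called, with 6 of 6 log2 ratios above 0 and a median of 0.59 against 0.10 over all genes. Lgals3 reached 305, 794 and 521 CPM. Of 5 T cell chemokine genes 4 were higher, Ccl4 (8.29 against 263 CPM), Ccl3 (6.63 against 96.1), Cxcl10 (11.6 against 61.2) and Ccl1. Ccl1 was itself selected for its level in T cells of p38KO. Of all 7310 genes with enough UMIs, 4.54% were higher and 1.33% lower. Within p38KO, 2 of 5 genes of the chemokine list were higher in Ccl1-positive than in Ccl1-negative cells, among them Ccl1, which defines the groups. The other 3 were lower in Ccl1-positive cells. Of 15 activation genes 3 were higher in p38KO than in vehicle, Egr2, Il2 and Il3, and 3 lower, Nr4a1, Egr3 and Cd69. Il2 in p38KO had 361 UMIs in Ccl1-positive and 21 in Ccl1-negative cells, with 313 in a single cell. A single p38KO cell held 27 Il3 UMIs. Of 5 genes of the coinhibitory list 2 were higher, Lag3 and Havcr2. Of 7 naive and memory genes 0 were higher and 2 lower, Ccr7 and Klf2. Transcripts of other cells moved with the library. Macrophage and monocyte markers summed to 2059, 1203 and 3493 CPM, with 4 of 7 called higher in p38KO, granulocyte markers to 1828, 4675 and 3297 CPM, with 2 of 4 called higher, and 0 of their 13 genes were at 0. Of 8 dissociation response genes 4 were lower in p38KO and 1 higher. The part of these transcripts in the members' levels was not tested.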

How the data were processed

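Per the labels, cells came from 3 samples, each 1 library of 3 pooled mice. The authors made the files with Cell Ranger (6.0.0 in the file header), and the submitters' processing notes name mm10. The deposited values are raw counts (UMIs) per gene and barcode, with no normalization. Python 3.11.15, numpy 2.4.6, scipy 1.17.1 and pandas 2.3.3 were used. Cells were filtered and gated on raw counts as given above, in the order mast (at least 10 Mcpt2 UMIs), Foxp3, Trdc, Cd4 and Cd8a among cells with Cd3e, then NK (Ncr1), macrophage (at least 3 C1qa UMIs), neutrophil (Csf3r), monocyte (Fn1) and other. Doublets were not called. An alternative left out T cells with myeloid transcripts. UMIs were summed per gate and library. CPM have exact Poisson intervals, shares exact Clopper-Pearson intervals and log2 ratios exact conditional binomial intervals, all at 95%. For a count of 0, 0.5 stood in within log2 ratios, and bounds use a floor of 3 UMIs. Such bounds leave out the counting error of the other count. No test between conditions was made, since each had 1 library. Cells were also thinned to 1500 UMIs (random seed 1). Scripts were tested on simulated data. The members, gene lists and gates were chosen with earlier results of these data known. Named genes were the members, the list genes, the 5 genes most like each member among genes with at least 100 UMIs, the 10 with the largest ratio in Ccl1-positive cells among genes with at least 50, leaving out mitochondrial, ribosomal, Gm-numbered and Rik genes, and up to 3 V genes. Promoter windows and motifs come from RefSeq, which matched 3 of the 4 members. Protein sequences were not used here. Depth was 20795195 to 24374173 UMIs per library in kept cells, which limits Ccr8 most.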

Additional observations from a re-analysis of the deposited data

Results flagged for a closer look

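Penk differed in direction between T cell gates in p38KO against vehicle. Its log2 ratio was 1.42 in conventional CD4 T cells. In CD8 T cells it was -3.01 with a floor of 3 UMIs for the 0 UMIs found in p38KO. This value leaves out the counting error of the vehicle UMIs. The difference between the gates was not tested, since each condition had 1 library.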

How the results depend on the processing

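Of 75 alternative ratios and shares, 58 stayed within the counting interval of the reported value, 17 did not and 0 reversed a call. Of 14 alternative numbers of genes called, 8 stayed within 1.5 times the reported number. Leaving out 1 top cell per library was chosen after the data were seen. For p38KO against vehicle in conventional CD4 T cells, the log2 ratio of Ccl1, 2.15, was 0.91 without T cells holding myeloid transcripts, 1.25 on thinned cells, 4.89 without the 5 top cells and 2.48 without the top cell. That of Penk, 1.42, was 2.19, 0.75 and 3.07 under the first 3 of these, and that of Lgals7, 0.76, was 2.06, 1.26 and 1.20. In vehicle the 5 top cells held 186 of 189 Ccl1 UMIs, and only 7 cells had any. Leaving them out left 152 Ccl1 UMIs in p38KO against 3 in vehicle, and for Penk 100 against 7. The ratios of Ccl1 and Penk without the 5 top cells thus rest on few vehicle UMIs and do not show a stronger difference. Ccl1 without cells holding myeloid transcripts and Penk on thinned cells fell under the 2-fold size. Lgals7 passed that size in its 3 settings above, but not without the top cell (0.86) or with no cell filter (0.75). For p38i against vehicle, the log2 ratio of Ccl1, 0.46, was 0.046 on thinned cells and -1.70 without the top cell. That of Penk, -0.32, was -0.93 on thinned cells and 1.81 without the 5 top cells. That of Lgals7, -0.15, was 0.92 without cells holding myeloid transcripts and -0.93 on thinned cells. In p38i neither Ccl1 nor Penk was called at the reported setting, so no call could be reversed. Without the top cell Ccl1 met the rule for lower, at 28 against 80 UMIs. Without the 5 top cells Penk met the rule for higher, at 28 against 7 UMIs. The share of Ccl1-positive cells with Lgals7 in p38KO, 53.6%, was 23.5% on thinned cells. The 332 genes higher in p38KO became 131 on thinned cells and 153 with at least 50 counts. The 247 higher in p38i became 133 without cells holding myeloid transcripts, 68 on thinned cells, 114 with at least 50 counts and 371 with no minimum. Thinning and the higher minimum leave fewer genes past the count rule, and other causes were not tested. Ratios under 20 UMIs, as for Ccr8, cannot show stability. No paired analysis was possible because each condition had 1 library.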
